A study of Rattus norvegicus with 8 samples.

Results

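The genes described here belong to the oligodendrocyte, the glial cell that wraps axons of the brain in myelin. They are Mbp, Mobp, Mog, Mag, Mal, Cldn11, Ugt8, Cnp and Olig1, and every polyadenylation site that the deposited table assigned to 1 of these 9 symbols was taken. That gave 97 sites of 73922, and the 9 genes were among 12255 with a site. The sites held 197298 of 13341135 reads (1.48%). Whole transcriptome termini site sequencing (WTTS-seq) counts the 3′ ends of polyadenylated RNA, so a gene with several ends appears as several sites.

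The libraries were made from hypothalamic tissue of 8 male adult rats of the outbred Long-Evans strain. In the diet-induced obesity group, 4 rats had free access to a high fat diet with 1.71 kcal/g from fat. The 4 control rats were kept on standard rodent chow with 0.51 kcal/g from fat. Tissue was taken after 36 days of diet exposure.

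Myelin is a stack of compacted glial membrane rich in cholesterol and galactolipids. Its proteins hold the cytoplasmic and outer faces of the membrane together, seal its edges and attach it to the axon. In bulk tissue such as this, fewer oligodendrocytes and less RNA in each oligodendrocyte cannot be told apart. The gene lists below were chosen with earlier results of these data known, so the direction that the 9 genes share is not independent evidence.

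The libraries held 1417531 to 1957726 reads each. Sites with 0 reads numbered 14788 in control library 1 and 10659 in obesity library 1, against 4062 to 6622 in the other libraries. The labels number the libraries 1 to 4 in each group, and those of the same number deviated from their group means together. The correlation over all sites was 0.268 to 0.382 for same-numbered libraries and -0.2 to -0.0387 for the rest. Over the 97 sites it was 0.422 to 0.57 for same-numbered libraries and -0.403 to 0.112 for the rest, given as a description of sites that share libraries. What the numbers stand for is not given in the labels.

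The 9 genes took 1.38%, 1.52%, 1.91% and 1.43% of all reads in control libraries 1 to 4. In obesity libraries 1 to 4 the shares were 0.982%, 1.72%, 1.56% and 1.44%. The groups overlapped, and their means were 1.56% ± 0.243 for controls against 1.42% ± 0.315 for obese rats (SD, n = 4). Mbp alone accounted for 80.4% of the reads of the 9 genes. The difference of -0.139 percentage points became 0.00841 without obesity library 1 and -0.021 without control library 3.

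Levels were compared as gene sums in CPM, the reads of a gene scaled to the size of each library. Reads are counted at ends, not along the whole transcript, so these values were not divided by transcript length. A gene sum can include priming within A-rich RNA, and it is a count of reads and not of molecules. Mbp, which encodes the basic protein that binds the cytoplasmic faces of compact myelin, was the most abundant at 14201 CPM over the 8 libraries. It was followed by Mobp at 1637, Cnp at 913, Cldn11 at 289, Mag at 244, Mal at 229, Mog at 102, Ugt8 at 18.3 and Olig1 at 16.2 CPM. The ranges over the 8 libraries did not overlap between Mbp and Mobp, Cnp and Cldn11, Mal and Mog, or Mog and Ugt8. The order of Cldn11, Mag and Mal was within their spread, since Cldn11 exceeded Mag in 6 of 8 libraries and Mag exceeded Mal in 3. Ugt8 exceeded Olig1 in 4 of 8 libraries.

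**Figure D1:**
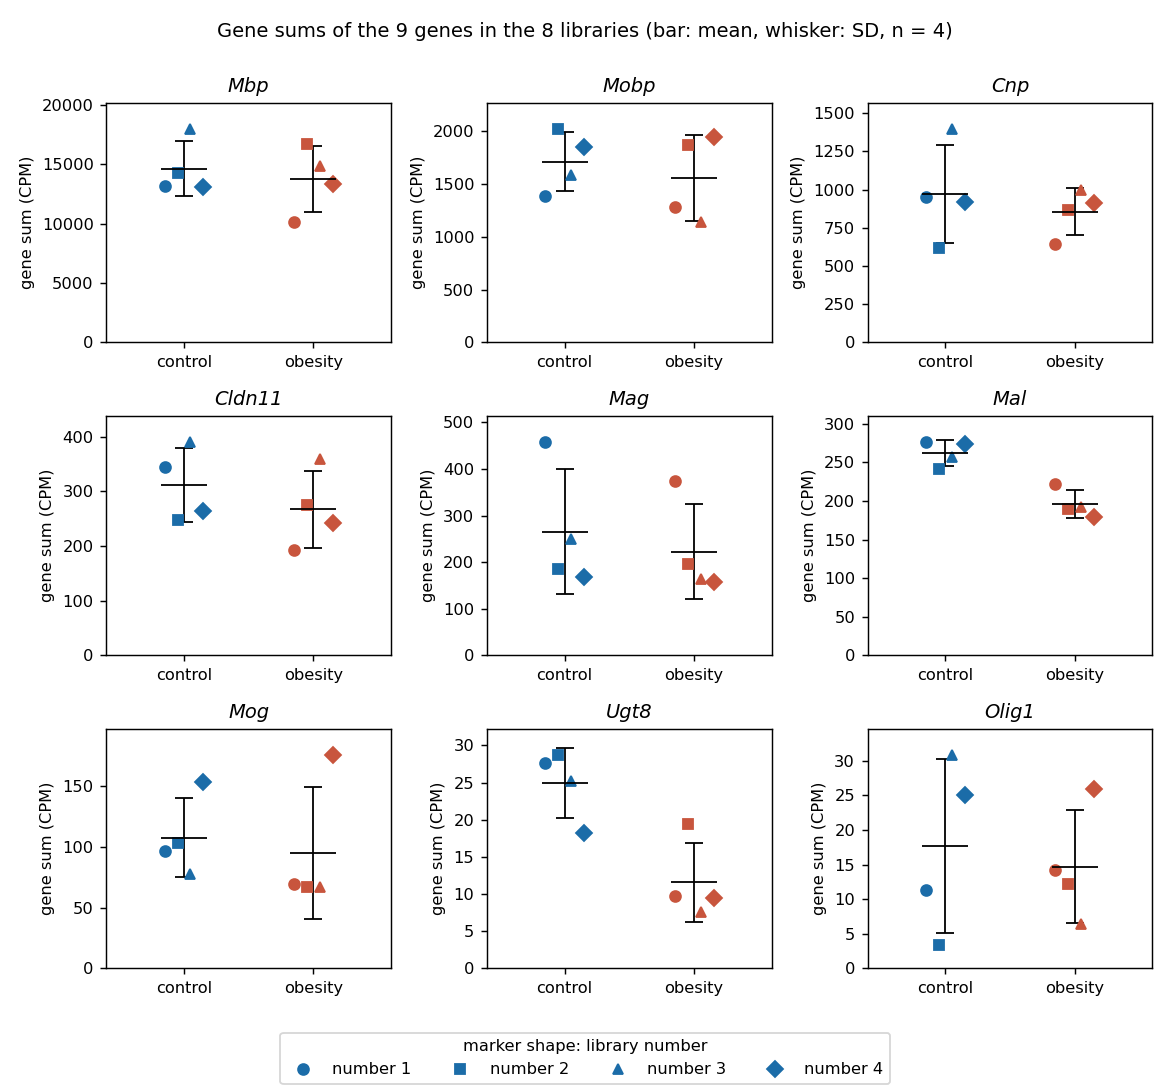
Gene sums of the 9 genes in CPM (vertical axis, from 0, scaled per gene) in control and obesity libraries. Each marker is 1 library and its shape gives the library number, the bar is the mean and the whisker the SD (n = 4). The groups are separated for Mal, with 241 to 277 CPM in control and 179 to 222 in obesity, and overlap for the other 8 genes.

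The first comparison asked whether the total output of each gene differed between obesity and control. The fitted log2 fold change was below 0 for 9 of 9 genes, where 49.9% of all genes were below 0, and for 6 of 9 without control library 3. The same-numbered pairs were less uniform. Obesity was lower in 4 of 4 pairs for Mal and Ugt8 and in 3 for Mog, Mag, Mobp, Cnp and Cldn11. It was lower in 2 of 4 for Mbp and in 1 of 4 for Olig1. The median over the 9 genes was -0.22, and over all 12255 genes it was 0.00072. None of the 9 genes passed an adjusted p of 0.1 (edgeR quasi-likelihood test), where 0% of all genes did. With the library number as a block, 0 of the 9 passed, and 0.277% of all genes did. Unadjusted p was under 0.05 for 2 of the 9 genes, Mal and Ugt8, both lower in obesity, by edgeR and also by the DESeq2 Wald test, where 5.89% of all genes were by the Wald test. At this unadjusted level by edgeR stood 5.12% of all genes, 2.58% lower and 2.54% higher in obesity. With the block the same 2 of 9 stood there, where 6.16% of all genes were lower and 4.76% higher.

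Mal encodes a proteolipid of membrane rafts that takes part in sorting membrane to myelin. It had 391, 360, 316 and 361 reads over controls 1 to 4 and 295, 233, 329 and 263 over obese rats 1 to 4. On the CPM scale the lowest control library, at 241, lay above the highest obesity library, at 222. The means were 262 ± 16.8 CPM for controls against 196 ± 18.3 for obese rats (SD, n = 4), and obesity was lower in 4 of 4 same-numbered pairs. Groups that did not overlap, with obesity lower, were seen for 1.77% of all genes, and with obesity higher for 1.68%. The log2 fold change was -0.42 (SE 0.19). The adjusted p of edgeR was 0.921 without the block and 0.281 with it. Where each gene was represented by its most abundant site alone, in a fit scaled to those sites, the log2 fold change of Mal was -0.15.

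Ugt8 encodes the transferase that makes galactosylceramide, the main galactolipid of myelin. It had few reads, 39, 43, 31 and 24 over controls 1 to 4 and 13, 24, 13 and 14 over obese rats 1 to 4. Obesity libraries 1, 3 and 4 lay below every control library, and obesity library 2 lay above control library 4 on the CPM scale. Within same-numbered pairs obesity was lower in 4 of 4. The means were 25 ± 4.72 CPM and 11.6 ± 5.34 (SD, n = 4). Between the diets it differed by a log2 fold change of -1.11 (SE 0.43). The adjusted p of edgeR was 0.921 without the block and 0.285 with it. A further 86 reads at 2 sites assigned to Ugt8 lay on the opposite strand, 30% of its reads, and with both strands summed the log2 fold change was -0.41.

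The other 7 genes differed by less than their SE in the fit without the block. With the block, Mag stood at -0.23 (SE 0.16), Mog at -0.26 (SE 0.2), Mobp at -0.16 (SE 0.13) and Cldn11 at -0.23 (SE 0.16). Mbp, Cnp and Olig1 differed by less than their SE with the block too. Mbp had 18551, 21351, 22173 and 17206 reads over controls 1 to 4 and 13464, 20592, 25393 and 19667 over obese rats 1 to 4. Obesity library 1 was the lowest of the 8, and the other obesity libraries lay within the control range in CPM. The means were 14631 ± 2328 CPM for controls against 13772 ± 2794 for obese rats (SD, n = 4), which gave a log2 fold change of -0.09 (SE 0.19). The fold change was above 0 without control library 3, at 0.03, or without obesity library 1, at 0.04.

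Mobp encodes a small basic protein of compact myelin related in role to Mbp. It had 1961, 3030, 1948 and 2443 reads over controls 1 to 4 and 1703, 2306, 1942 and 2864 over obese rats 1 to 4. Libraries numbered 2 and 4 were the higher in both groups. The log2 fold change was -0.14 (SE 0.21), and it ran from -0.25 without obesity library 4 to -1.46e-06 without obesity library 3.

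Mog encodes an immunoglobulin-domain protein on the outermost face of the sheath, a known autoantigen. It had 137, 154, 96 and 202 reads over controls 1 to 4 and 93, 83, 115 and 259 over obese rats 1 to 4. Library 4 was the highest of its group in both, and the other 3 obesity libraries were at 67.4 to 69.9 CPM. Between the diets it differed by a log2 fold change of -0.18 (SE 0.33), and it was 0.05 without control library 4.

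Mag encodes a sialic acid binding adhesion protein at the innermost glial membrane, facing the axon. It had 648, 277, 307 and 222 reads over controls 1 to 4 and 498, 241, 280 and 233 over obese rats 1 to 4. Library 1 was the highest of its group in both. The log2 fold change was -0.25 (SE 0.34), and it was 0.18 without control library 1.

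Cnp encodes a cyclic nucleotide phosphodiesterase that keeps cytoplasmic channels through myelin open, and Cldn11 the claudin that forms tight junctions between its layers. Cnp had 1343, 923, 1722 and 1205 reads over controls 1 to 4 and 854, 1065, 1708 and 1341 over obese rats 1 to 4. The reads of Cldn11 were 486, 369, 481 and 348 over controls 1 to 4 and 257, 338, 613 and 355 over obese rats 1 to 4. Control library 3 had the highest CPM of both genes. The log2 fold changes were -0.18 (SE 0.23) for Cnp and -0.22 (SE 0.23) for Cldn11, and Cnp was at 0.05 without control library 3. Cldn11 ran from -0.39 without obesity library 3 to -0.091 without control library 3, and it was at -0.095 without obesity library 1.

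Olig1 encodes a helix-loop-helix transcription factor of the oligodendrocyte lineage. It had 1 site, with 16, 5, 38 and 33 reads over controls 1 to 4 and 19, 15, 11 and 38 over obese rats 1 to 4. The obesity libraries all lay within the control range in CPM. Between the diets it differed by a log2 fold change of -0.26 (SE 0.59). It was 0.16 without control library 3, 0.0094 without obesity library 3, and 0.62 with the block and without both. A difference smaller than this error was not detectable at this depth.

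**Figure D2:**
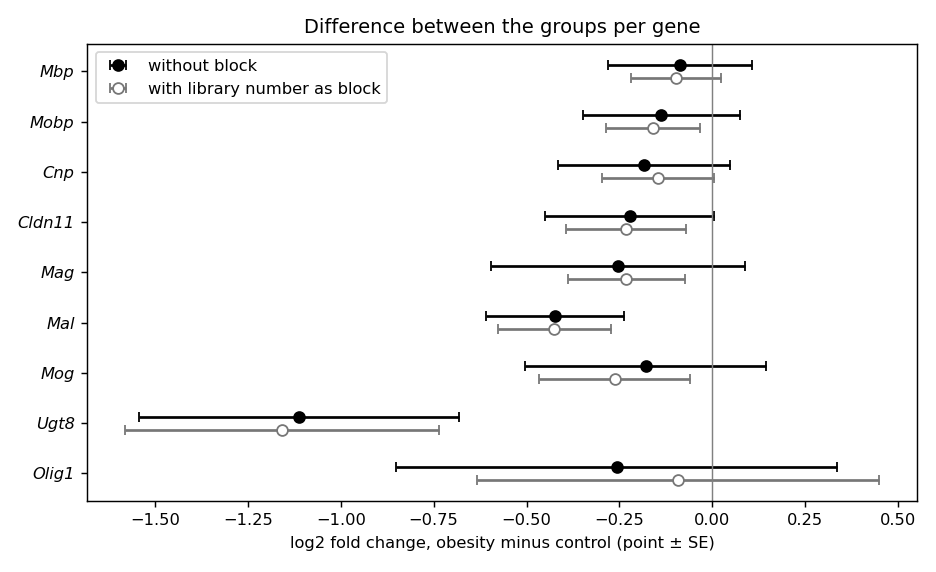
Log2 fold change of each gene sum, obesity minus control (horizontal axis), with its SE, from the edgeR fit without a block (filled) and with the library number as a block (open). All 9 genes lie below 0 in both fits, from -0.09 for Mbp to -1.11 for Ugt8 without the block, and 0 genes passed an adjusted p of 0.1 in either fit.

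Other genes of the lineage were taken from a list of 49, of which 44 had a site. Of these, 22 were lower and 22 higher in the obese rats (median log2 fold change -0.0011). By edgeR 0 of the 44 passed an adjusted p of 0.1 with or without the block, and 1 had an unadjusted p under 0.05 without it. Among 12 myelin and junction proteins 8 were lower, among 8 enzymes of myelin lipids and metabolites 4, among 7 transcription factors 1, among 4 genes of progenitors and differentiating cells 1, and among 13 other genes of mature cells 8.

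The gene under an unadjusted p of 0.05 was Hapln2, which encodes a matrix link protein of the node of Ranvier. It stood at 38.8 ± 9.73 CPM for controls against 24 ± 3.54 for obese rats (SD, n = 4), with groups that did not overlap and an edgeR adjusted p of 0.921. Groups also did not overlap for Pllp, another of the myelin and junction proteins, at 41.3 ± 7.12 CPM against 27.9 ± 2.41 (SD, n = 4). Groups that did not overlap, with obesity lower, were seen for 1.77% of all genes. Car2, a carbonic anhydrase of glia, stood at -0.42 on the log2 fold scale (SE 0.22). The lineage factor Sox10 was at 0.02 (SE 0.25), the early myelination gene Bcas1 at 0.18 (SE 0.31) and the septin Sept4 at -0.13 (SE 0.2).

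Markers of other cells were read from the same fit, and the part they have in the values above was not tested. Of 10 astrocyte markers 7 were lower in the obese rats, and their median log2 fold change was -0.21, near that of the 9 genes. Their summed level was 4787 to 7183 CPM in control and 4233 to 6283 in obesity. Of 12 neuron markers 11 had a site and 7 were lower, with a median of -0.15 and summed levels of 6629 to 9572 CPM in control and 5800 to 8667 in obesity. Of 9 microglia markers 5 had a site, with a median of 0.07 and 83.6 to 141 CPM in control against 46.6 to 134 in obesity. Cx3cr1, C1qa, Tmem119 and Itgam had no site. Vascular markers, 5 of 6 with a site and none for Vwf, stood at 71.6 to 113 CPM and 63.3 to 136, with a median of 0.14. Of 5 ependymal and choroid plexus markers 2 had a site, at 1.34 to 11.4 CPM in control and 1.17 to 104 in obesity, the highest in obesity library 4, with none for Foxj1, Kl and Folr1. Of 5 anterior pituitary markers 3 had a site, at 17.9 to 56 CPM in control and 6.13 to 127 in obesity, with none for Prl and Tshb.

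The 9 genes did not move as 1 unit across libraries. Over the 36 pairs of genes, the median Pearson correlation of log2 CPM over the 8 libraries was 0.0979, from -0.471 for Mag and Mobp to 0.833 for Cnp and Cldn11. Mal and Ugt8 had 0.692, Mbp and Cldn11 0.725, and Mog and Mobp 0.603. These are descriptions over 8 libraries of 2 groups, with scaling in common. The genes named next were the highest of a search, with each of the 9 genes weighted alike in the mean of log2 CPM. Olig1 ran from 3.35 to 30.9 CPM and Mbp from 10113 to 18022, so Olig1 moved that mean more than Mbp did. How high r would run by chance in such a search was not tested. Among 8257 genes with a mean of at least 10 CPM outside both lists, Ncln was most like the mean of the 9 genes (Pearson r 0.96, Spearman rho 0.952), followed by Ndrg4 (0.955 and 0.905), Cbx7 (0.936 and 0.905), S100a1 (0.925 and 0.905), Mrps16 (0.925 and 0.929), Ube2r2 (0.923 and 0.929), Rnf34 (0.922 and 0.929), Dusp15 (0.919 and 0.905), Sept9 (0.914 and 0.881) and Sfmbt1 (0.907 and 0.857).

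The second comparison asked whether single sites, or the use of sites within a gene, differed. The 9 genes differed widely in how many ends they had. Mbp had 39 sites, Mobp 23, Mog 11, Mag 9, Mal 4, Ugt8 4, Cnp 3, Cldn11 3 and Olig1 1. On the opposite strand of their gene lay 10 of the 97 sites, 5 of Mbp, 3 of Mog and 2 of Ugt8. The site with most reads of a gene is called its main site here. The median of the 97 sites had 105 reads over all libraries, and 47 had fewer than 100.

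The main site of Mbp, on chromosome 18 (plus strand, 79437082 to 79437320, Rnor_6.0 as in the deposited table), was the most 3′ of its 34 sites on that strand. It held 91% ± 4.86 of the gene's reads for controls against 91% ± 2.09 for obese rats (SD, n = 4). The main sites of Cnp (chromosome 10, plus strand, 88497336 to 88497377) and Cldn11 (chromosome 2, minus strand, 115823512 to 115823559) were also the most 3′ and held 96.7% and 96.4% of the reads of their genes. Reads of Mobp were spread more evenly. Its main site (chromosome 8, plus strand, 128853867 to 128854027) was the 17th of 23 and held 25.5%.

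In Mag the main site (chromosome 1, minus strand, 89360366 to 89360397) was the second from the 5′ side of 9 and held 40.8% of reads. In Mog (chromosome 20, plus strand, 2014014 to 2014053) it was the 7th of 8 and held 36.6%. In Mal (chromosome 3, minus strand, 120211234 to 120211291) it was the first of 4 and held 48.8%. Ugt8 had its main site on chromosome 2 (minus strand, 229644560 to 229644570) and Olig1 on chromosome 11 (plus strand, 31430514 to 31430521). Whether a site falls in an exon, intron or untranslated region was not analysed here.

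**Figure D3:**
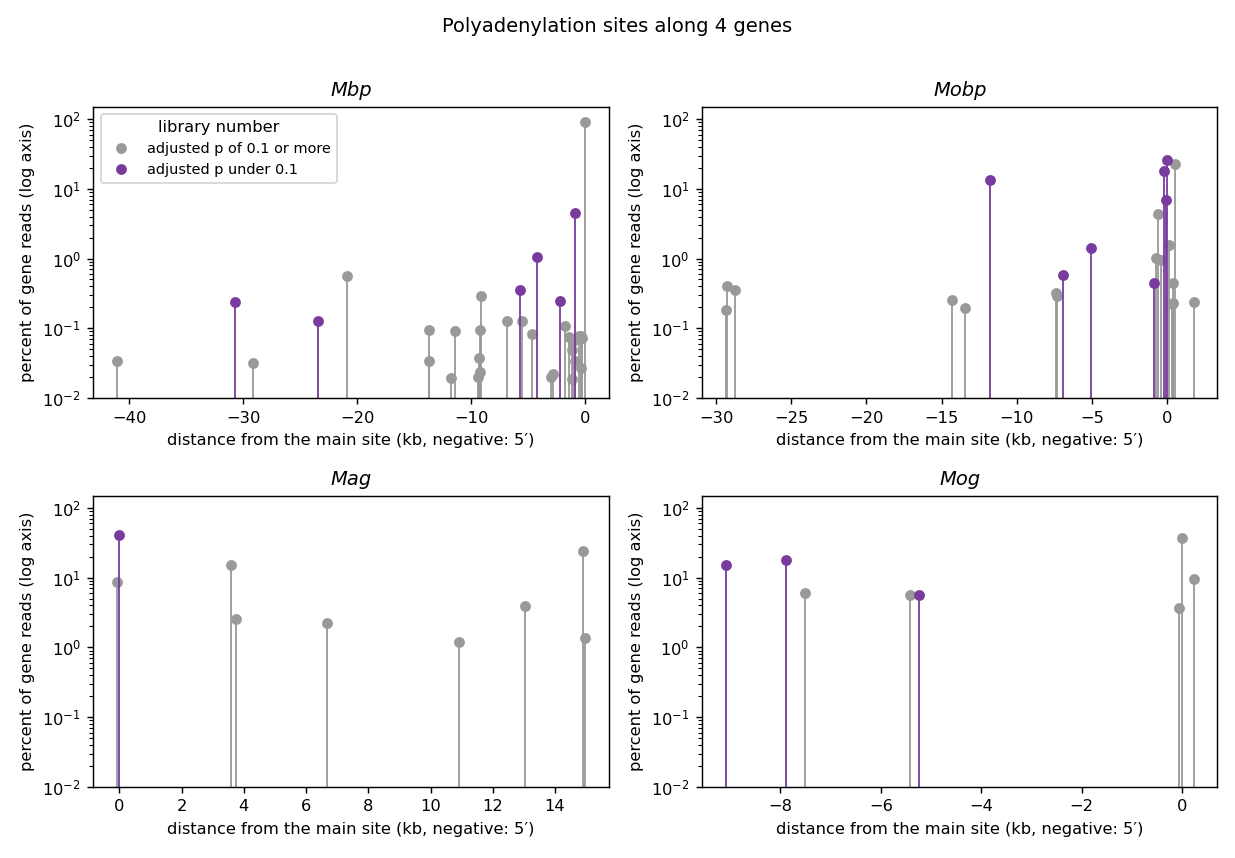
Sites of Mbp, Mobp, Mag and Mog by distance from the main site of the gene (horizontal axis, kb, negative towards the 5′ end) and percent of gene reads over all libraries (vertical axis, log scale). Purple sites passed an adjusted p of 0.1 for a difference between library numbers, 6 in Mbp, 7 in Mobp, 1 in Mag and 3 in Mog on the strand shown.

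None of the 97 sites passed an adjusted p of 0.1 (edgeR), with or without the block, where 0.00135% of all sites passed without it and 0.00541% with it. Unadjusted p was under 0.05 at 9 of the sites, 4 lower and 5 higher in obesity, where 3.14% of all sites reached it, 1.41% lower and 1.72% higher. The DESeq2 Wald test called 0 of the 97 sites and had 10 at an unadjusted p under 0.05, where 0.0136% and 3.86% of all sites stood by that test. With the block 16 sites had an unadjusted p under 0.05, 9 lower and 7 higher, where 6.09% of all sites did. Groups did not overlap at 2 lower sites and 1 higher site, where 1.69% and 1.43% of all sites did so. Of the 97 sites 52 were lower in obesity, and 47.6% of all sites were.

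In Mobp, a site 150 bases 3′ of the main site (128854059 to 128854115) had 8, 23, 14 and 26 reads in control libraries 1 to 4. In obesity libraries 1 to 4 it had 45, 58, 40 and 68. Every obesity library lay above every control library. The share of Mobp reads there was 0.737% ± 0.268 for controls against 2.4% ± 0.251 for obese rats (SD, n = 4). The log2 fold change of the site was 1.45 (SE 0.47), with an edgeR adjusted p of 1 without the block and 0.302 with it. A site 761 bases 5′ of the main site (128853127 to 128853212) was also higher in the mean, at 8.27 ± 1.51 CPM for controls against 19.4 ± 9.3 for obese rats (SD, n = 4). The groups overlapped there, and obesity was higher in 4 of 4 same-numbered pairs.

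In Mbp, a site 11470 bases 5′ of the main site (79425806 to 79425840) had 34, 34, 21 and 20 reads in control libraries 1 to 4. In obesity libraries 1 to 4 it had 3, 8, 7 and 17. Every obesity library lay below every control library in CPM. The share of Mbp reads there was 0.138% ± 0.0402 and 0.0438% ± 0.0293 (SD, n = 4). The log2 fold change was -1.72 (SE 0.56). The adjusted p of edgeR was 1 without the block and 0.435 with it. A site 30750 bases 5′ of the main site (79406548 to 79406678) went the other way in the mean, at 16.4 ± 11.7 CPM for controls against 40.3 ± 31.2 for obese rats (SD, n = 4), with overlap.

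The lower reads of Mal lay mostly at its most 3′ site, 1629 bases from the main site (120209644 to 120209663). It had 158, 188, 152 and 137 reads over controls 1 to 4 and 105, 135, 78 and 68 over obese rats 1 to 4. Obesity library 2 overlapped the controls in CPM, and the other obesity libraries lay below them. Obesity was lower in 4 of 4 same-numbered pairs. Between the diets it differed by a log2 fold change of -0.79 (SE 0.35) at this site and -0.28 (SE 0.31) at the main site. The 3′ site held 44.7% ± 6.64 of Mal reads for controls against 35.8% ± 15.7 for obese rats (SD, n = 4).

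Of the remaining sites named by the rule, the main sites of Ugt8, Mag, Cldn11, Cnp, Mbp, Mobp and Olig1 had log2 fold changes of -1.05, -0.5, -0.32, -0.25, -0.14, -0.12 and -0.35. For Olig1, -0.35 at the site and -0.26 for the gene sum came from the same reads. The fit of sites and the fit of gene sums were scaled separately, so their fold changes are not on the same footing. The Mog main site had -0.86 (SE 0.47), with 40.6 ± 15.7 CPM for controls against 22.5 ± 11.8 for obese rats (SD, n = 4). The Mag site 83 bases 5′ of the main site (89360442 to 89360496) had -0.42 (SE 0.5). The Cnp site 4708 bases 5′ of the main site (88492641 to 88492672) had 0.03 (SE 0.6).

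Site use was examined in the 8 genes with several sites. None passed an adjusted p of 0.1 without the block, by the Simes p of edgeR or by its gene-level F test, where 0% of 7996 genes passed. With the block 0 of the 8 passed and 0.0125% of all genes did. Unadjusted Simes p was under 0.05 in 0 of the 8 without the block, where 1.39% of all genes reached it, and in 2 with it, Mobp and Mbp, where 2.81% did. The gene-level F test had 1 gene at an unadjusted p under 0.05 without the block, Cldn11, where 2.15% of all genes were. With the block the unadjusted p of this F test was 0.00067 for Mbp, 0.0072 for Mobp and 0.017 for Cldn11. The adjusted p-values of that test were 0.184, 0.675 and 0.891, and the share of all genes was not counted there. The main site of Cldn11 held 98.3% ± 1.93 of its reads for controls against 94.4% ± 2.26 for obese rats (SD, n = 4). The groups overlapped, and the other sites of Cldn11 had only 37 and 80 reads over all libraries.

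The difference between library numbers was examined because reads at several sites followed the number in both groups, a test chosen after the counts were seen. In the fit with the block, the 3 number terms were tested together. An adjusted p under 0.1 (edgeR) was reached by 19 of the 97 sites (19.6%), where 8.66% of all sites reached it. Among sites with a mean of at least 10 CPM it was 15 of 41 (36.6%), where 20.6% of all such sites did. For gene sums it was 3 of 9, Mag, Mog and Mobp, where 10.7% of all genes did, with adjusted p-values of 0.000345, 0.0141 and 0.0517. Leaving out 1 library gave 1 to 5 genes, 5 without control library 2 or obesity library 2 and 1 without obesity library 4. The number of sites was then 13 to 20. Of the 44 other genes of the lineage, 9 passed for gene sums.

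Both groups entered the test that chose the 19 sites, so their likeness at these sites is a description. The 19 sites shared their libraries and several lay in the same gene, so they are not independent. By position, 12 lay over 1000 bases 5′ of the main site, of 46 such sites, and 6 within 1000 bases of it, the main site included, of 30. The main sites of Mag and Mobp were among them, and that of Mbp was not, at an adjusted p of 0.159.

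The smallest p belonged to a Mobp site 11795 bases 5′ of the main site (128842108 to 128842132), which held 13.4% of the gene's reads. It had 42, 364, 165 and 610 reads over controls 1 to 4 and 24, 217, 195 and 819 over obese rats 1 to 4. The order of the numbers in CPM was the same in both groups, with number 4 highest and number 1 lowest, a ratio of 23.1 between their means. The edgeR adjusted p for number was 8.06e-09, while the log2 fold change between the diets was -0.07.

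A Mog site 7890 bases 5′ of the main site (2006136 to 2006155) had 0, 1, 9 and 72 reads over controls 1 to 4 and 0, 1, 12 and 109 over obese rats 1 to 4. It held 17.9% of Mog reads, nearly all from number 4 (edgeR adjusted p 1.84e-07). A Mog site on the opposite strand (2013516 to 2013519) had 0, 9, 4 and 22 reads in control and 0, 22, 3 and 64 in obesity, again highest in number 4 (0.000572).

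The Mag main site had 425, 27, 134 and 40 reads over controls 1 to 4 and 334, 25, 72 and 46 over obese rats 1 to 4. Number 1 was highest in both, and number 1 was also highest in the Mag gene sum. The ratio between the means of numbers 1 and 2 was 13 (edgeR adjusted p 4.03e-07).

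In Mbp, a site 864 bases 5′ of the main site (79436422 to 79436515) had 526, 2172, 260 and 923 reads over controls 1 to 4 and 573, 1400, 510 and 837 over obese rats 1 to 4. Number 2 was highest and number 3 lowest in both (edgeR adjusted p 4.85e-06). A site 4242 bases 5′ of the main site (79433054 to 79433068) had 41, 380, 110 and 264 reads in control and 40, 237, 210 and 385 in obesity, with number 1 lowest in both (3.59e-06). Another, 23476 bases 5′ of the main site (79413820 to 79413830), had 0, 0, 53 and 0 reads in control and 3, 0, 140 and 2 in obesity, with number 3 alone above 3 reads (1.4e-07).

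A second Mobp site, 5035 bases 5′ of the main site (128848838 to 128848904), had 14, 32, 2 and 61 reads over controls 1 to 4 and 15, 22, 9 and 102 over obese rats 1 to 4. Number 4 was highest and number 3 lowest in both (edgeR adjusted p 0.000277). Mal, Ugt8 and Olig1 did not pass for number, at edgeR adjusted p-values of 0.9, 0.746 and 0.429 for the gene sums.

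**Figure D4:**
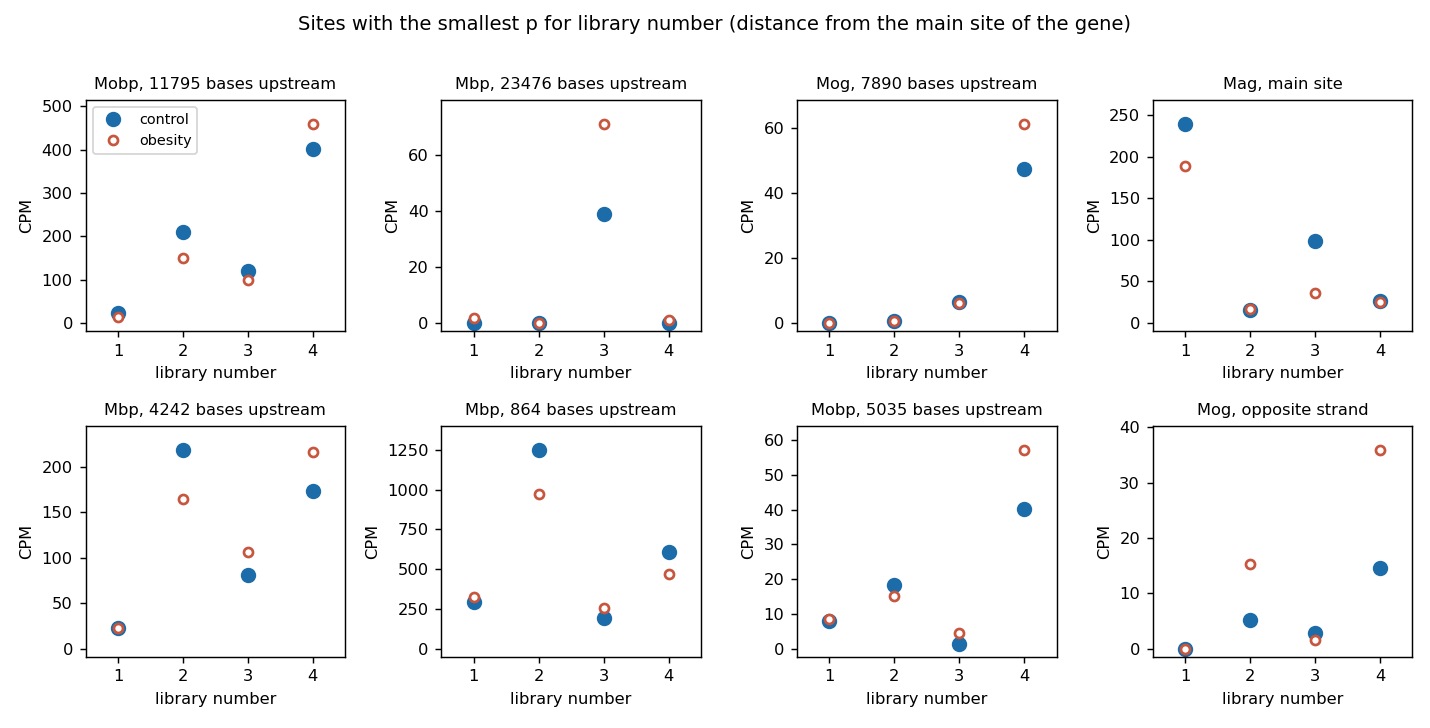
CPM (vertical axis, scaled per panel) at the 8 sites with the smallest p for library number, against library number (horizontal axis), for control (filled) and obesity (open). The sites were chosen with both groups in the test. At the Mobp site 11795 bases upstream number 1 is lowest and number 4 highest in both groups.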

How the data were processed

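WTTS-seq was carried out on hypothalamus of 8 rats, with 4 libraries per group. For each site the authors deposited a count of reads in every library, with no scaling. The submitters' processing notes name the build Rnor_6.0 and Bowtie2 2.2.3. The clustering of ends into sites is not given in the sources used here. A line holding the column total of 1 library was left out. The lowest site total was 30 reads, so a minimum of 16 reads removed 0 sites. Priming within A-rich RNA can be counted as an end, and reads carry no molecular identifiers.

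Gene sums used the sites on the strand with most reads of a gene. Sites and gene sums were tested over the whole table with edgeR 4.0.16 (TMM, robust quasi-likelihood F test) in R 4.3.3, site usage with diffSpliceDGE, all with Benjamini-Hochberg adjustment and a threshold of 0.1. CPM of gene sums is scaled to the reads in gene sums, and CPM of sites to all reads. The SE was the log2 fold change divided by the root of F. DESeq2 1.42.0 served as an alternative. The scripts were tested on simulated data. The differences planted there were larger than those between the diets given here, so that test does not measure the sensitivity to them. Same-numbered libraries correlated over 0.1 in 4 of 4 pairs, so the numbers were taken to pair them. The fold changes and SE given are from the fit without the block unless stated, so that SE includes differences between library numbers. By the design text the RNA came from 8 rats, taken here as 1 library per rat.

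The members and gene lists were chosen with earlier results of these data known. All 9 genes are named. Of their sites the text names the main site and the 2 with the smallest unadjusted p at a mean of at least 10 CPM. Of other lineage genes it names those under an unadjusted p of 0.05, the most abundant per role, and Pllp for groups that did not overlap. Sites named for library number were chosen after their values were seen. Sequence around the sites was not analysed here. Some results under these rules are not reported here.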

Additional observations from a re-analysis of the deposited data

Results flagged for a closer look

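Over both groups together, 52 checks by Dixon's test, each within a group of 4 libraries, singled out 6 values. The checks covered the summed share, the gene sums and the named sites. Chance alone singles out about 1 in 20. The Mog gene sum was 176 CPM in obesity library 4, against 67.4 to 69.9 in the other obesity libraries. The Mog site 7890 bases 5′ of its main site was at 61.1 CPM in obesity library 4, against 0 to 6.07, and at 47.4 in control library 4, against 0 to 6.61. The Mag main site was at 189 CPM in obesity library 1, against 17.3 to 36.4. The Ugt8 main site was at 15.9 CPM in obesity library 2, against 5.57 to 6.23. The Mbp main site was at 15539 CPM in control library 3, against 9809 to 10389.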

How the results depend on the processing

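No member passed an adjusted p of 0.1 for gene sums, single sites or site usage with DESeq2 size factors, filterByExpr, the replicate block or libraries left out. None passed with the DESeq2 Wald test (genes and sites), both strands summed or the main site alone (genes), or the gene-level F test or only sites with at least 1 percent of gene reads (usage). With the replicate block 0 members passed in each of the 3 comparisons. Among the 44 other lineage genes the block without both libraries numbered 2 gave 1 call, where 4.55% of all genes were called. Leaving out 1 library gave 1 to 5 genes and 13 to 20 sites differing by library number, and a median log2 fold change of the 9 genes of -0.35 to -0.095.

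The fold changes whose sign turned were smaller than their SE, and the cause was not tested. Over 18 settings the gene sums of Mag, Mog and Cnp were below 0 in 17, Mbp in 16 and Olig1 in 15. For Mag, Mog, Cnp and Mbp the exceptions were fits without a block that left out 1 library and kept its same-numbered partner. With the block and without both libraries of a number, log2 fold changes were 0.62 for Olig1 and 0.55 for its site (without 3), -0.0081 for the Mog site at 2006136 (without 4), -0.029 (without 1) and -0.050 (without 4) for Sox10, and -0.039 for Bcas1 (without 1). From the main site alone Sox10 was at -0.29 and Sept4 at 0.076. Leaving out 1 library gave gene log2 fold changes from -0.19 to 0.037 for Mbp, -0.65 to 0.049 for Mog, -0.63 to 0.18 for Mag, -0.35 to 0.049 for Cnp, -0.66 to 0.16 for Olig1, -0.086 to 0.21 for Sox10 and -0.18 to 0.40 for Bcas1. For main sites it gave -0.59 to 0.25 in Mobp, -0.43 to 0.0030 in Cnp, -0.78 to 0.10 in Olig1, -0.25 to 0.043 in Mbp and -1.86 to 0.55 in Mag. For the sites at 88492641 in Cnp and 2006136 in Mog it gave -0.52 to 0.70 and -2.5 to 2.84. Mal and Ugt8 stayed below 0 with 1 library left out, at -0.49 to -0.37 and -1.47 to -0.94. Over the 18 settings their highest values were -0.15 for Mal, from the main site alone, and -0.41 for Ugt8, with both strands summed. Ugt8 and Olig1, with 201 and 175 reads in their gene sums over all libraries, were the most limited by depth.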
